A study of Mus musculus with 8 samples.

Results

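Amino acid transporter genes were described in naive CD4+ T cells of mice in which Cre targets Pcbp1 in T cells, and of control mice. Pcbp1 encodes PCBP1, a protein that binds RNA and is also called hnRNP E1. The genes are all rows of the count files whose symbol belongs to the solute carrier families Slc1, Slc3, Slc6, Slc7, Slc36, Slc38 or Slc43. The rule uses names and no counts, but these members and the other gene lists below were chosen with earlier results of these data known. The rule gave 64 of 24421 gene rows. Of these, 61 are transporter genes or their close relatives and 3 (Slc6a19os, Slc7a6os and Slc36a1os) are separate genes named for lying on the opposite strand. By family there were 7 transporter rows of Slc1, 2 of Slc3, 19 of Slc6, 15 of Slc7, 4 of Slc36, 11 of Slc38 and 3 of Slc43.

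T cells import amino acids through carriers with overlapping substrates. Members of Slc1 and Slc38 use the sodium gradient to bring in small neutral amino acids such as glutamine, alanine and serine. The light chains of Slc7 reach the surface bound to the heavy chain of CD98 (Slc3a2) and exchange one amino acid for another, whereas cationic members of Slc7 carry arginine and lysine on their own. Slc36 and some Slc38 members sit in the lysosomal membrane, where mTORC1 senses amino acids, and Slc6 holds carriers of taurine, creatine, glycine and neurotransmitters. In T cells, glutamine and leucine uptake are known to rise after activation, and resting cells are known for low levels of several of these carriers.

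RNA came from naive CD4+ T cells that were isolated with a kit from the spleens of male C57BL/6 mice aged 6 to 8 weeks, without further treatment. The groups are 4 libraries titled E1KO and 4 titled E1WT, and the genotypes named are Pcbp1fl/flCd4-Cre and Pcbp1+/+Cd4-Cre, so both carry the Cd4-driven Cre recombinase, which acts in developing T cells. The genotype field gives the opposite of the title in all 8 samples, and here libraries are grouped and named by title. Pcbp1 RNA followed the titles, with 38.3 to 41.8 CPM (the usual measure of level in RNA-seq, here counts scaled to the library total and its TMM factor) in the libraries titled E1KO and 203 to 243 CPM in those titled E1WT. Pcbp1 RNA was thus lower but not absent in the E1KO-titled libraries (log2 fold -2.49). The comparison asks how naive CD4+ T cells differ between the titles. The labels do not tie libraries to animals or say whether animals were pooled, so the spread behind each p-value may be technical.

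The libraries held 28264655 to 36738202 gene counts each. Xist, the RNA of the inactive X chromosome, stood at 365 to 425 CPM in the E1KO-titled and 0.55 to 2.89 CPM in the E1WT-titled libraries, although all mice are labelled male, and the Y-linked Ddx3y, Eif2s3y, Kdm5d and Uty were lower by 0.98 to 1.08 on the log2 scale with no overlap. Sex-linked expression and title therefore cannot be told apart. T cell markers were abundant, with Cd4 at a mean of 850 CPM or more in both titles and 7 CD4 T cell markers summing to 3116 to 3296 CPM in E1KO and 3623 to 3772 CPM in E1WT. Long genes read high in E1KO library 1 and E1WT library 4 (Spearman correlation of a gene's deviation with its exon length 0.22 and 0.32). They read low in E1KO libraries 3 and 4 and in E1WT library 2 (-0.32, -0.23 and -0.26), as a description across genes.

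Of the 61 transporter genes, 26 had a mean of at least 1 CPM over the 8 libraries, 30 had counts below that, and 5 (Slc1a7, Slc6a2, Slc7a12, Slc7a13 and Slc7a15) were at 0 in every library. Just inside that threshold lay Slc7a8 at 1.005 CPM, and just outside lay Slc7a3 at 0.9998 and Slc6a9 at 0.992 CPM. Summed over all 61, transporter RNA made up 1561 to 1755 CPM in E1KO and 1613 to 1740 CPM in E1WT, so the ranges overlapped. The make-up of that sum was narrow. The 10 genes highest per length held 88.1% ± 0.33 of the summed per-length level in E1KO and 88.1% ± 0.45 in E1WT (SD, n = 4 each).

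Levels of different genes were compared per kilobase of exon. Slc1a5, the glutamine exchanger ASCT2, stood highest at a mean of 47.6 CPM per kb and overlapped with no other member. Slc3a2, Slc38a10, Slc7a5 and Slc38a2 followed at 27.2, 25.3, 25.0 and 22.8 CPM per kb, and neighbours in that order overlapped in their ranges over libraries. Slc6a6 and Slc38a1 came next at 17.1 and 16.7, then Slc43a2 and Slc7a1 at 12.7 and 12.5, and Slc7a6 and Slc36a1 at 9.02 and 8.87 CPM per kb. Ranges of neighbours in this order overlapped, except between Slc38a2 and Slc6a6, between Slc7a1 and Slc7a6, and between Slc36a1 and Slc38a7. Slc38a7 stood alone at 4.72 CPM per kb. The other 14 lay between 0.103 (Slc1a2) and 2.62 (Slc43a3) CPM per kb, each overlapping with its neighbours.

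**Figure D1:**
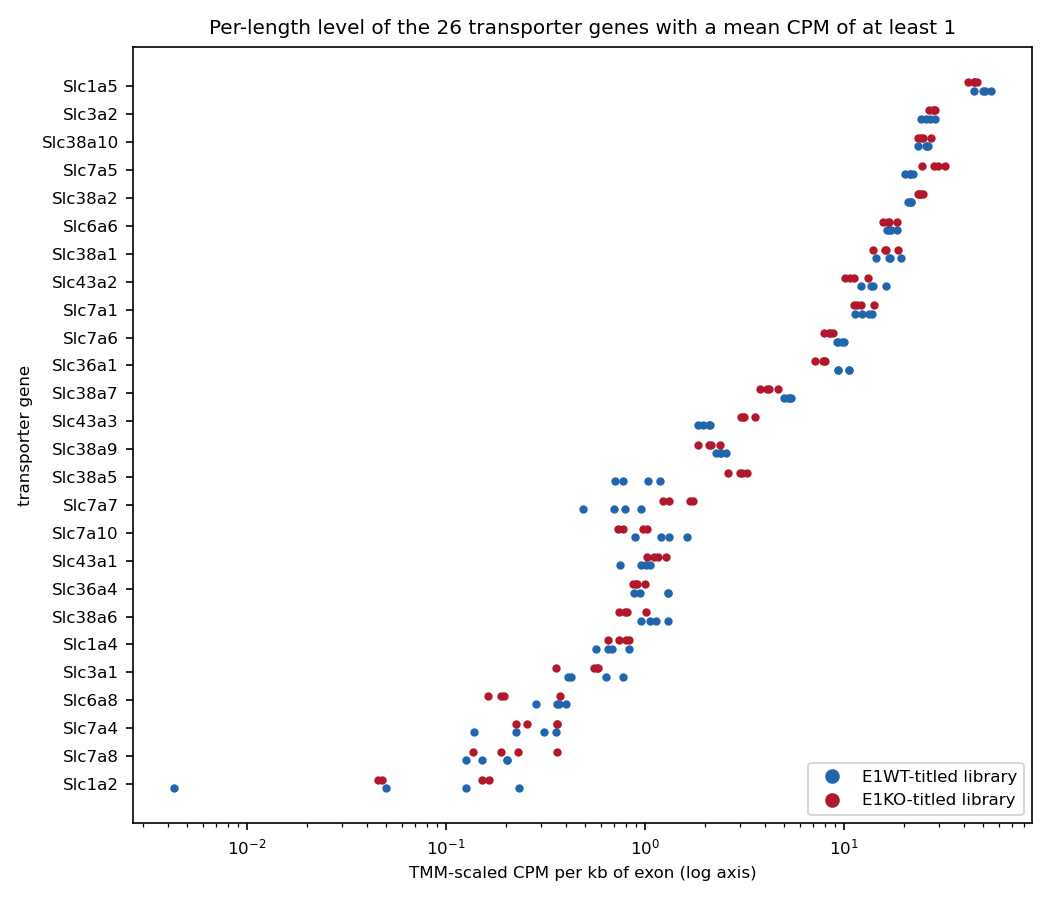
Level of each of the 26 transporter genes with a mean of at least 1 CPM, in CPM per kb of exon on a log axis, 1 point per library, blue for E1WT-titled and red for E1KO-titled. Slc1a5 lies highest, at a mean of 47.6 CPM per kb, and red and blue points separate for only some genes, such as Slc38a5, Slc43a3, Slc7a7 and Slc36a1.

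The filter on low counts left 33 of the 61 transporter genes for testing, and 7 were higher and 5 lower in the E1KO-titled libraries by the edgeR quasi-likelihood test at an adjusted p of at most 0.05. Among all 13333 genes tested 12.2% were called higher and 11.1% lower (23.3% in all). For 6 transporters all 4 E1KO libraries lay above all 4 E1WT libraries and for 3 below, where the shares over all genes were 13.9% and 12.1%. Of the 26 with a mean of at least 1 CPM, 5 were higher and 5 lower, against 13.0% and 11.9% (25.0% in all) of 11724 genes at such levels. The median log2 fold of the 33 was -0.03, against 0.01 over all genes tested. Those called higher were Slc38a5, Slc6a13, Slc6a9, Slc7a7, Slc43a3, Slc7a5 and Slc38a2, and those called lower were Slc38a6, Slc36a1, Slc38a7, Slc43a2 and Slc7a6. Slc38a5, Slc7a7, Slc43a3, Slc7a5 and Slc36a1 were called under all alternatives in which they were tested, and each of the other 7 lost the call under at least 1. Without E1KO library 1 and E1WT library 4 together, 6 members were higher and 4 lower, of which 9 were among the 12. With no scaling beyond total counts 7 were higher and 2 lower, and over all genes the split went from 1623 higher and 1485 lower to 2257 and 1045.

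**Figure D2:**
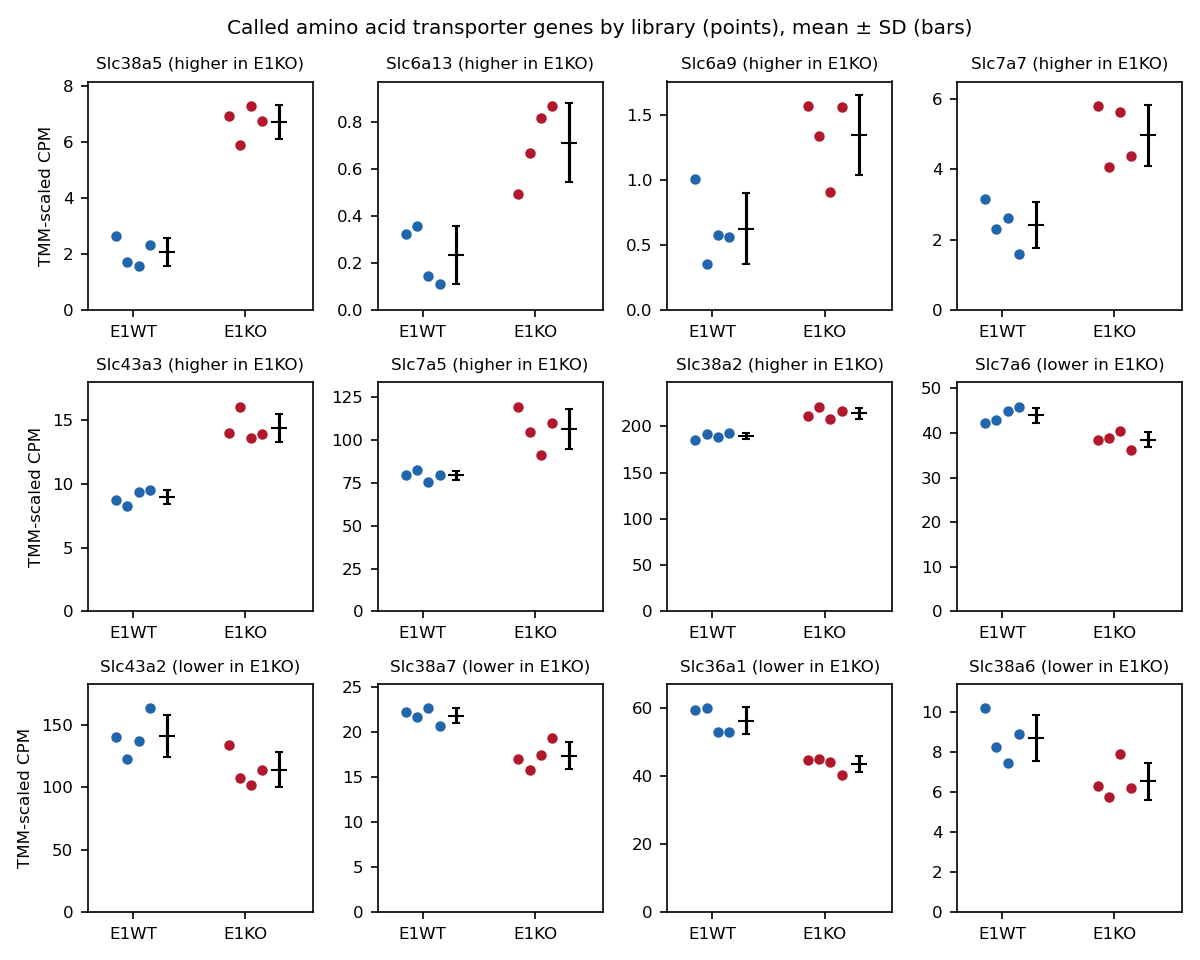
TMM-scaled CPM of the 12 called transporter genes, 1 panel per gene, with 1 point per library and bars for mean ± SD over 4 libraries of each title. The groups lie apart in 9 panels and overlap for Slc6a9, Slc43a2 and Slc38a6.

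The heavy chain of CD98 did not pass the test, and its main light chain rose. Slc3a2 (chromosome 19, 8706882 to 8723369, minus strand) read 94.4, 98.6, 101 and 100 CPM in E1KO libraries 1 to 4 and 91.2, 101, 95.4 and 86.1 CPM in E1WT libraries 1 to 4. The titles overlapped, with a log2 fold of 0.08 ± 0.06 (SE; edgeR adjusted p = 0.39). Slc7a5, which encodes LAT1, the carrier of leucine and other large neutral amino acids, lies on chromosome 8 from 121881150 to 121907694 on the minus strand. It read 119, 105, 91.2 and 110 CPM in the E1KO-titled libraries and 79.7, 82.3, 75.5 and 79.7 CPM in the E1WT-titled ones. All E1KO values exceeded all E1WT values, and E1KO spread more (106 ± 11.7 against 79.3 ± 2.81 CPM, SD, n = 4 each). Its log2 fold was 0.42 ± 0.08 (edgeR adjusted p = 0.0022), and it ran from 0.36 to 0.49 over the alternatives.

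Of the other light chains, Slc7a6 fell and Slc7a7 rose. Slc7a6, the light chain y+LAT2 that exchanges cationic for neutral amino acids, read 38.4, 38.8, 40.5 and 36.3 CPM in E1KO and 42.1, 42.9, 44.8 and 45.8 CPM in E1WT. The titles did not overlap, but the fall was small (log2 fold -0.19 ± 0.06, edgeR adjusted p = 0.044) and the call was lost without any 1 library other than E1KO 3 (adjusted p = 0.057 to 0.13) and without E1KO 1 and E1WT 4 together (0.10). Slc7a7, the related light chain y+LAT1 that is known from kidney, gut and macrophages, read 5.80, 4.07, 5.62 and 4.37 CPM in E1KO and 3.17, 2.31, 2.63 and 1.61 CPM in E1WT. Every E1KO value was above every E1WT value, with a log2 fold of 1.04 ± 0.22 (edgeR adjusted p = 0.0053) that ran from 0.79 to 1.19 over the alternatives. Slc7a7 (chromosome 14, 54369442 to 54417780, minus strand) shares an exon stretch with Oxa1l on the other strand, which stood at 66.1 to 85.5 CPM with a log2 fold of 0.19 ± 0.07 (adjusted p = 0.063). Whether the counting used strand is not given, so reads there could belong to either gene.

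Markers of some other cells stood higher in the libraries in which Slc7a5, Slc7a7 and the other genes called higher rose. Among all genes tested 12.2% rose and 11.1% fell. Of 9 monocyte and macrophage markers 5 rose and 1 fell, and their summed level was 98.1 to 112 CPM in E1KO and 47.6 to 54.5 CPM in E1WT. The 1 that fell, C1qb, was at 0 to 0.063 CPM in E1KO and 0.36 to 0.65 CPM in E1WT. It passed the count cutoff of the filter in 0 E1KO and 4 E1WT libraries. Of 8 dendritic cell markers 6 rose and 0 fell (30.1 to 34.6 against 14.7 to 19.1 CPM). The 5 plasma cell markers, of which 1 (Jchain) rose, summed to 829 to 1036 against 570 to 779 CPM. Most of that sum was Jchain itself, at 685 to 879 against 439 to 641 CPM, and the other plasma cell markers were not called. The 5 platelet markers, of which 0 of 3 tested were called, summed to 14.3 to 17.2 against 9.81 to 13.2 CPM. The sums of 7 B cell, 7 NK cell and 6 neutrophil markers overlapped between titles. Of these, 1 of 7 B cell and 2 of 6 tested NK cell markers rose and 0 fell. Of the 6 neutrophil markers 1 rose and 1 fell. Of 7 CD4 T cell markers 1 rose and 4 fell, and of 7 naive T cell markers 2 rose and 2 fell. None of the macrophage or dendritic cell markers was at 0 in all libraries. The part of these markers in the rise of Slc7a5, Slc7a7 and the other members called higher was not tested. In bulk RNA, fewer cells of a type and less RNA per cell cannot be told apart.

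Per length, the make-up of the light chains that pair with Slc3a2 differed between titles. Slc7a5 gave 74.0%, 72.0%, 68.1% and 73.9% of the light-chain level in E1KO libraries 1 to 4, and 65.6%, 65.2%, 62.7% and 64.3% in E1WT. Slc7a6 gave 19.3% to 24.5% in E1KO and 27.6% to 30.2% in E1WT, and Slc7a7 3.13% to 4.69% and 1.46% to 2.92%. The ratio of Slc7a5 to Slc3a2, both per length, was 1.03 ± 0.14 in E1KO and 0.81 ± 0.06 in E1WT (SD, n = 4 each), and it overlapped in E1KO library 3 (0.860) and E1WT library 4 (0.881). These shares restate the gene values and were not tested.

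**Figure D3:**
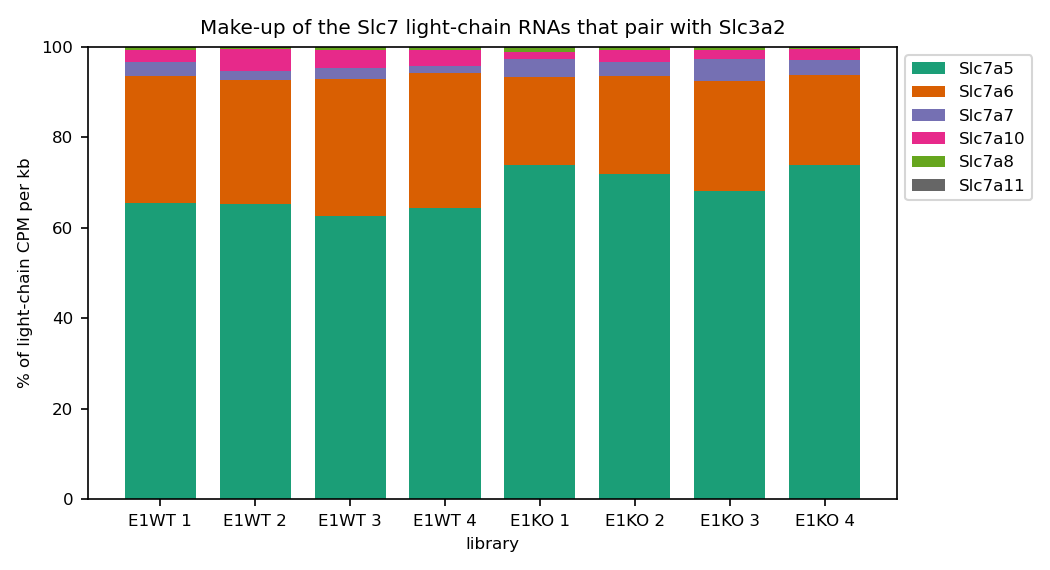
Share of the summed light-chain level, in percent of CPM per kb of exon, taken by each of 6 Slc7 genes whose products pair with Slc3a2, 1 bar per library. Slc7a5 takes 62.7% to 65.6% in the E1WT-titled and 68.1% to 74.0% in the E1KO-titled libraries.

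The remaining light chains were low. Slc7a10, a carrier of small neutral amino acids known as Asc-1, had a log2 fold of -0.53 ± 0.23 at 1.85 against 2.66 CPM (edgeR adjusted p = 0.12), and Slc7a8, encoding LAT2, one of 0.44 ± 0.35 at 1.15 against 0.85 CPM (adjusted p = 0.40). Slc7a11, the cystine carrier xCT, was at 0.31 to 1.02 CPM in E1KO and 0.07 to 0.62 CPM in E1WT (log2 fold 1.10 ± 0.56, adjusted p = 0.19). It passed the count cutoff of the filter in 4 E1KO and 1 E1WT libraries. Slc3a1, the heavy chain rBAT of kidney and gut, was at 1.17 against 1.28 CPM (log2 fold -0.11 ± 0.30, adjusted p = 0.83) and overlaps Prepl on the other strand, and its partner Slc7a9 had 2 counts in 1 library and 0 in the others.

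Of the cationic carriers, Slc7a1 was the main one. This gene for CAT1, through which arginine and lysine enter, read 163, 140, 130 and 134 CPM in E1KO and 154, 131, 143 and 161 CPM in E1WT, with a log2 fold of -0.05 ± 0.08 (edgeR adjusted p = 0.68). Its highest values were in E1KO library 1 and E1WT library 4, where long genes read high. Slc7a3, encoding CAT3, stood at 1.27 against 0.72 CPM (log2 fold 0.83 ± 0.37, adjusted p = 0.13), and Slc7a4 at 1.25 against 1.07 CPM (0.21 ± 0.33, adjusted p = 0.69). Slc7a14 was at 0.31 against 0.64 CPM (-1.001 ± 0.45, adjusted p = 0.13), and it passed the count cutoff of the filter in 1 E1KO and 4 E1WT libraries. Slc7a2, the gene of CAT2 known from macrophages, was not tested at a mean of 0.15 CPM.

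In the Slc1 family, 0 of 3 tested genes passed in edgeR, with 1 of them (Slc1a5) at an unadjusted p under 0.05 and called lower by DESeq2. Slc1a5 read 176, 188, 195 and 188 CPM in E1KO and 208, 230, 215 and 188 CPM in E1WT. The titles overlapped only through E1WT library 4, with a log2 fold of -0.17 ± 0.07 (edgeR adjusted p = 0.085), and without that library the fold was -0.22 (adjusted p = 0.022). It was also called with E1KO 1 and E1WT 4 left out (adjusted p = 0.021) and after correction for exon length (0.0087). Slc1a4, the alanine, serine and cysteine carrier ASCT1, stood at 2.97 against 2.70 CPM (log2 fold 0.14 ± 0.18, adjusted p = 0.62). Slc1a2, a glutamate carrier of astrocytes, varied within titles from 0.60 to 2.17 CPM in E1KO and from 0.06 to 3.07 CPM in E1WT (0.02 ± 0.75, adjusted p = 0.99).

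Slc38 was the family with the most RNA, at 669 to 777 CPM in E1KO and 664 to 767 CPM in E1WT, and its members went in different directions. Of 7 tested genes 2 rose and 2 fell. Slc38a1, a sodium-coupled glutamine carrier of the cell surface also called SNAT1, read 324, 282, 241 and 277 CPM in E1KO and 296, 251, 292 and 332 CPM in E1WT. Its low and high libraries were those in which long genes read low and high, and its log2 fold was -0.06 ± 0.10 (edgeR adjusted p = 0.71) and 0.041 after correction for exon length. Slc38a2, encoding SNAT2, a carrier of the same kind that is known to be induced when amino acids are scarce, read 211, 221, 208 and 216 CPM in E1KO and 185, 191, 189 and 192 CPM in E1WT. Its titles did not overlap, and the rise was small (log2 fold 0.18 ± 0.05, edgeR adjusted p = 0.019). The call was lost without E1KO library 2 or 4 or E1WT library 1 or 3 (adjusted p = 0.057 to 0.069). Slc38a10 read 175, 157, 152 and 161 CPM in E1KO and 167, 151, 167 and 170 CPM in E1WT, with a log2 fold of -0.02 ± 0.06 (adjusted p = 0.84).

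Slc38a5 had the largest fold of the 33 tested transporters. The gene encodes SNAT5, a carrier of glutamine, serine and other small amino acids, and lies on the X chromosome from 8271133 to 8280179 on the plus strand. It read 6.93, 5.89, 7.29 and 6.77 CPM in E1KO and 2.67, 1.73, 1.59 and 2.32 CPM in E1WT, so the lowest E1KO library exceeded the highest E1WT library. The means were 6.72 ± 0.59 and 2.08 ± 0.51 CPM (SD, n = 4 each), with a log2 fold of 1.69 ± 0.18 (edgeR adjusted p = 7.41e-05) that ran from 1.59 to 1.83 over the alternatives. Of 426 tested X-linked genes 14.1% were higher and 10.8% lower, against 12.2% and 11.1% on the autosomes. The X-linked Slc6a8 and Slc7a3 were not called, and the part of the Xist difference in the rise of Slc38a5 was not tested. Erythroid markers were higher in the same libraries, with 6 of 8 tested rising and 0 falling, against 12.2% and 11.1% of all genes tested. Their summed level was 191 to 227 CPM in E1KO and 71.7 to 93.7 CPM in E1WT. The globin genes Hbb-bs, Hbb-bt, Hba-a1 and Hba-a2 were listed at 0 in all libraries, and the part of these markers in the rise was not tested.

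**Figure D4:**
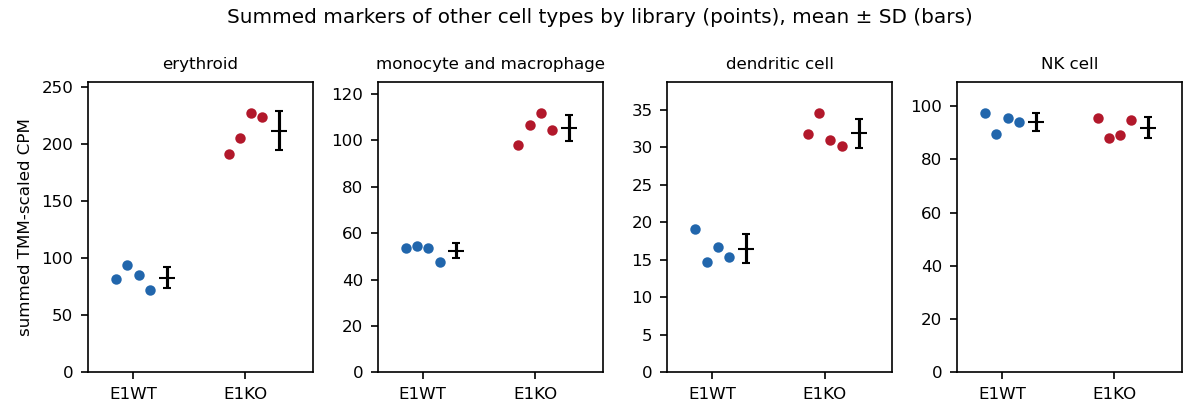
Summed TMM-scaled CPM of 12 erythroid, 9 monocyte and macrophage, 8 dendritic cell and 7 NK cell markers, 1 point per library, with mean ± SD over 4 libraries of each title. The first 3 sums lie higher in all E1KO-titled libraries (for erythroid markers 191 to 227 against 71.7 to 93.7 CPM), and the NK sums overlap.

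Slc38a7 and Slc36a1, which are known from lysosomes, fell. Slc38a7, which exports glutamine and asparagine from lysosomes, read 17.0, 15.8, 17.4 and 19.3 CPM in E1KO and 22.2, 21.7, 22.6 and 20.7 CPM in E1WT. The titles did not overlap (log2 fold -0.33 ± 0.08, edgeR adjusted p = 0.015). The call held without any 1 library but was lost with the replicate number as a block (edgeR adjusted p = 0.052). Slc36a1, a proton-coupled carrier of small amino acids known as PAT1, lies on chromosome 11 from 55204350 to 55236330 on the plus strand. It read 44.7, 45.1, 44.1 and 40.2 CPM in E1KO and 59.5, 60.0, 52.9 and 52.8 CPM in E1WT, again without overlap. Its log2 fold was -0.37 ± 0.07 (edgeR adjusted p = 0.0026) and ran from -0.42 to -0.31 over the alternatives. Slc38a9, the arginine sensor of the mTORC1 pathway, read 35.9, 40.0, 35.1 and 30.8 CPM in E1KO and 40.0, 38.2, 42.9 and 40.2 CPM in E1WT. Its values overlapped in E1KO library 2, and the log2 fold was -0.19 ± 0.08 (adjusted p = 0.13).

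Slc38a6 also fell, and Slc36a4 and Slc36a3 did not pass the test. Slc38a6 read 6.30, 5.77, 7.88 and 6.20 CPM in E1KO and 10.2, 8.25, 7.43 and 8.87 CPM in E1WT. The titles overlapped in E1KO library 3 and E1WT library 3, the log2 fold was -0.41 ± 0.14 (edgeR adjusted p = 0.049), and the call was lost without any 1 library other than E1KO 3 and E1WT 3 (adjusted p = 0.061 to 0.15) and without E1KO 1 and E1WT 4 together (0.11). Slc36a4, encoding PAT4, stood at 6.02 against 7.27 CPM (-0.27 ± 0.15, adjusted p = 0.22). Slc36a3, a relative known from testis, was at 0.33 against 0.40 CPM (-0.27 ± 0.62, adjusted p = 0.79).

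The stretches before the starts of Slc38a5, Slc36a1, Slc38a7 and Slc7a7 are shown because they are the called members whose windows hold the E-box CACGTG, the letters bound by MYC and by the lysosomal regulator TFEB, or TGATGNAA, the core of the response element of ATF4. Each is the 150 bases before an annotated start, 5′ to 3′ on the gene's strand, from RefSeq on GRCm38.p6. Matches that lie wholly within a stretch are in capitals (CACGTG in the first 3, TGATGNAA in the last). Matches that run across the start are not marked, namely CACGTG from -3 in Slc36a1 and TGATGCAA from -1 in Slc7a7.
Slc38a5: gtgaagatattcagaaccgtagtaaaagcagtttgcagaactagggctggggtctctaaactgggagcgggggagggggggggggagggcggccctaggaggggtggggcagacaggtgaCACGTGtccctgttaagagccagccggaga
Slc36a1: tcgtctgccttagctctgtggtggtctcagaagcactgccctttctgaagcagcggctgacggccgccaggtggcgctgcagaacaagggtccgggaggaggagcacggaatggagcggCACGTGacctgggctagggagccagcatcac
Slc38a7: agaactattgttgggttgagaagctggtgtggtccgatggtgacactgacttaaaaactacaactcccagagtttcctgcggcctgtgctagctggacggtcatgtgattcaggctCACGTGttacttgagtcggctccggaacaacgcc
Slc7a7: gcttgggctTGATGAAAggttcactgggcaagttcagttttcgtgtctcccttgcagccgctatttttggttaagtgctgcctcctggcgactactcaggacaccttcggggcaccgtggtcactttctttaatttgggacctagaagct
They lie at chrX:8271231-8271380 (plus), chr11:55204190-55204339 (plus), chr8:95853492-95853641 (minus) and chr14:54417945-54418094 (minus). The E-box shown begins 30, 31 and 34 bases before the RefSeq starts of Slc38a5, Slc36a1 and Slc38a7. The first of these genes rose and the others fell. RefSeq starts need not match the GENCODE positions used elsewhere here. By GENCODE, the Slc38a5 stretch lies inside the gene (8271133 to 8280179). The Slc38a7 stretch overlaps its gene, which by GENCODE starts at 95853539 on the minus strand.

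RefSeq windows from 250 bases before to 50 after a start were given for 43 of the 61 transporters, 64 windows in all, and for 10 of the 12 called genes (not for Slc7a5 or Slc43a3). The motifs were searched on both strands, and matches of different motifs may share bases. CACGTG, which reads the same on both strands, was in 8 of the 64 windows (12.5%), against 7.15% of all 32851 windows. By gene, it was in windows of 3 of the 10 called genes and of 5 of the 25 tested members with windows, which include the 10. TGATGNAA was in 4 windows (6.25%, against 3.97% of all), in 1 of the 10 and in 3 of the 25. TGACNNNGC, the core of the antioxidant response element, was in 10 windows (15.6%, against 12.4% of all), in 5 of the 10 and in 7 of the 25. A gene can have several windows, so shares of genes and of windows are not alike. A match describes letters only.

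In the Slc43 family the 3 members differed in direction. Slc43a3, which is known as a carrier of purine nucleobases rather than of amino acids, lies on chromosome 2 from 84936579 to 84958509 on the plus strand. It read 14.0, 16.1, 13.6 and 14.0 CPM in E1KO and 8.73, 8.30, 9.42 and 9.52 CPM in E1WT, with a wide gap between titles. Its log2 fold was 0.68 ± 0.10 (edgeR adjusted p = 0.00045) and ran from 0.62 to 0.74 over the alternatives. Slc43a2, encoding LAT4, which carries large neutral amino acids without exchange, read 133, 108, 102 and 113 CPM in E1KO and 141, 122, 137 and 163 CPM in E1WT. E1KO library 1 lay within the E1WT range, and the log2 fold was -0.30 ± 0.10 (edgeR adjusted p = 0.044). That call was lost without any 1 library other than E1KO 1 and E1WT 2 (adjusted p = 0.083 to 0.12), and it held after correction for exon length (log2 fold -0.28, adjusted p = 0.0053). Slc43a1, encoding the related LAT3, stood at 6.55 against 5.41 CPM (0.28 ± 0.14, adjusted p = 0.18).

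In the Slc6 family 2 of 5 tested genes rose, both below a mean of 1 CPM. Slc6a6, the taurine carrier, was the only Slc6 member with a mean above 2 CPM and read 156, 142, 141 and 134 CPM in E1KO and 139, 143, 145 and 157 CPM in E1WT. Its titles covered nearly the same range (log2 fold -0.03 ± 0.06, edgeR adjusted p = 0.78). Slc6a13, a GABA and taurine carrier known from liver and kidney, read 0.495, 0.668, 0.816 and 0.868 CPM in E1KO and 0.325, 0.357, 0.144 and 0.113 CPM in E1WT (log2 fold 1.58 ± 0.44, edgeR adjusted p = 0.024). It passed the count cutoff of the filter in 4 E1KO and 2 E1WT libraries, and its call was lost without E1KO library 2, 3 or 4 or E1WT library 3 or 4 (adjusted p = 0.051 to 0.072). Slc6a9, the glycine carrier GlyT1 of brain and of red cell precursors, read 1.57, 1.34, 0.91 and 1.56 CPM in E1KO and 1.01, 0.36, 0.58 and 0.57 CPM in E1WT. It overlapped between titles in E1KO library 3 and E1WT library 1 (log2 fold 1.11 ± 0.36, edgeR adjusted p = 0.044). Its call was lost without any 1 library other than E1KO 3 and E1WT 1 (adjusted p = 0.086 to 0.11) and without E1KO 1 and E1WT 4 together (0.13). The erythroid markers rose in these same libraries, and their part was not tested.

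Slc6a8, the creatine carrier, stood at 1.20 ± 0.50 against 1.84 ± 0.26 CPM (SD, n = 4 each), with a log2 fold of -0.62 ± 0.29 (edgeR adjusted p = 0.16). E1KO library 2 read 1.94 CPM and the other E1KO libraries 0.85 to 1.02, and without it the fold was -0.95 (adjusted p = 0.032). Slc6a19, a neutral amino acid carrier of gut and kidney, was at 0.855 against 0.891 CPM (-0.06 ± 0.49, adjusted p = 0.95). The other 14 Slc6 rows were not tested. They include the carriers of dopamine (Slc6a3), serotonin (Slc6a4) and noradrenaline (Slc6a2), with means of 0.0079 and 0.062 CPM for the first pair and 0 for the last. Over all families 28 transporters were not tested, and the highest of them was Slc6a17 at 0.27 CPM.

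**Figure D5:**
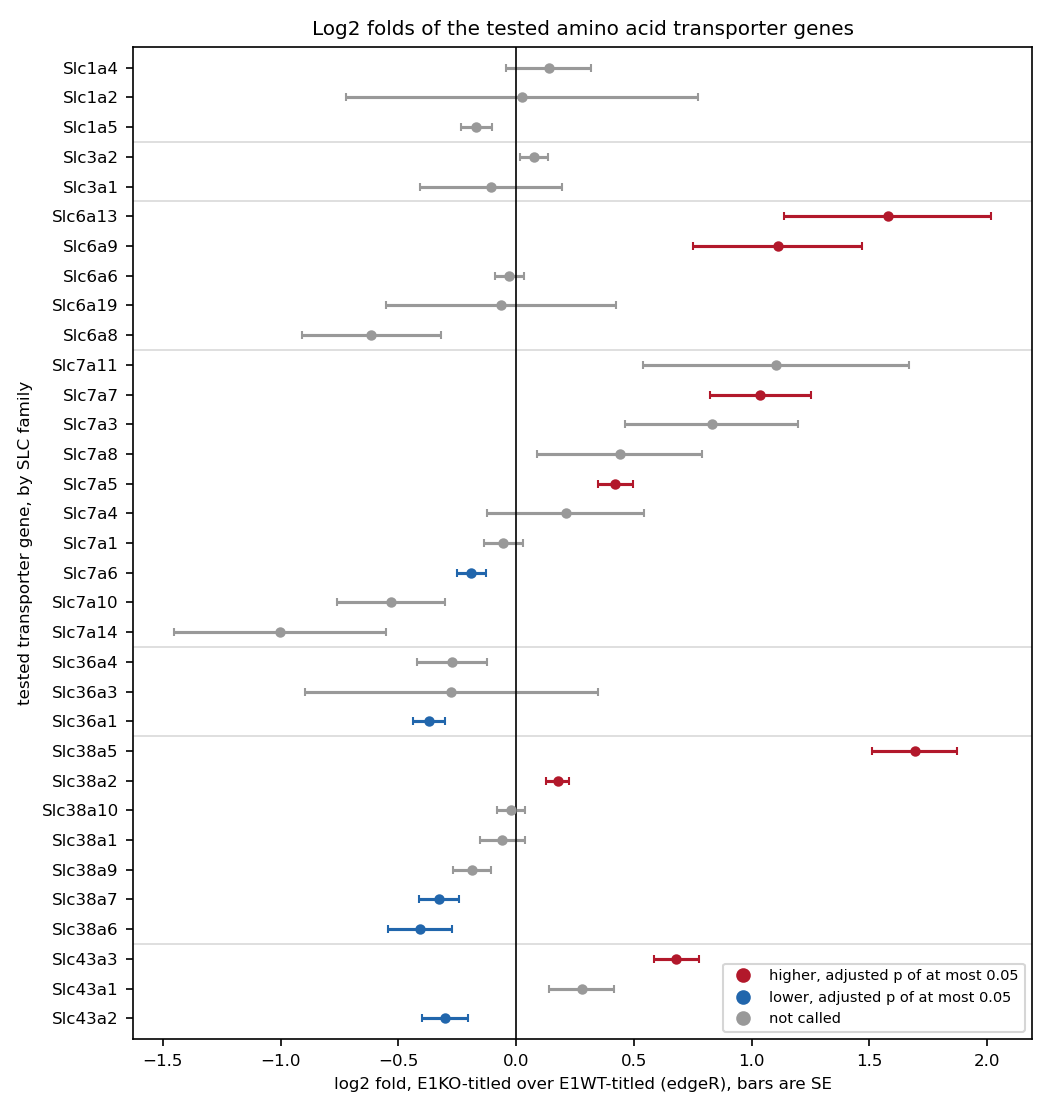
Log2 fold (E1KO-titled over E1WT-titled, edgeR) of the 33 tested transporter genes grouped by SLC family, with bars of 1 SE. Red marks the 7 called higher, blue the 5 called lower and grey the rest, and the largest fold is that of Slc38a5 at 1.69.

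Of the opposite-strand rows only Slc7a6os, a gene next to Slc7a6 that encodes no carrier, was tested. It read 23.2, 27.7, 36.2 and 28.0 CPM in E1KO and 29.6, 38.4, 27.7 and 22.7 CPM in E1WT (log2 fold -0.04 ± 0.16, edgeR adjusted p = 0.88). Its order over libraries ran against that of the long genes, highest in E1KO 3 and E1WT 2. Slc36a1os and Slc6a19os were at means of 0.05 and 0.06 CPM.

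Carriers outside the named families rose in 2 of 11 tested cases and fell in 0, where 12.2% and 11.1% of all genes did. Slc15a2, the proton-coupled peptide carrier PEPT2, went from 18.95 ± 1.09 to 34.9 ± 2.89 CPM (SD, n = 4 each; log2 fold 0.88 ± 0.08, edgeR adjusted p = 3.44e-05). Slc15a3, a lysosomal carrier of peptides and histidine known from macrophages and dendritic cells, went from 2.57 ± 0.50 to 6.94 ± 0.64 CPM (log2 fold 1.43 ± 0.16, edgeR adjusted p = 0.00011). The median log2 fold of these 11 was 0.14, against 0.01 over all genes tested, and macrophage and dendritic cell markers stood higher in the same libraries.

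Of 34 genes of lysosomal amino acid sensing and mTORC1, 3 rose and 8 fell (median log2 fold -0.01), against 12.2% and 11.1% of all genes tested (median 0.01). Mtor, the kinase of the complex, read 70.2 to 79.6 CPM in E1KO and 87.8 to 105 CPM in E1WT (log2 fold -0.41 ± 0.07, edgeR adjusted p = 0.0015). Rragd, a Rag GTPase, rose by 0.75 ± 0.11 (adjusted p = 0.0006). Sesn2, a leucine sensor and ATF4 target, rose by 0.93 ± 0.15 (adjusted p = 0.001).

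Of the genes of the GCN2 and ATF4 response outside the carriers, 9 of 24 rose and 2 fell, with a median log2 fold of 0.21, where 12.2% of all genes tested rose, 11.1% fell and the median was 0.01. Asns, asparagine synthetase, read 14.0, 11.8, 12.7 and 14.6 CPM in E1KO and 3.68, 3.49, 3.79 and 3.34 CPM in E1WT (log2 fold 1.89 ± 0.11, edgeR adjusted p = 1.69e-06). Eif4ebp1, an inhibitor of translation initiation, rose by 1.20 ± 0.14 (adjusted p = 0.00016), and Got1, the cytosolic aspartate aminotransferase, fell by 1.10 ± 0.11 (adjusted p = 4.12e-05). Of some carriers known as targets of this response, Slc7a5 and Slc38a2 were called higher, whereas Slc3a2, Slc7a1, Slc7a11 and Slc1a4 were not called. This is not a full list of carriers that are such targets, so it gives no share of them.

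Of 22 tested enzymes that use the carried amino acids, 6 rose and 1 fell (median log2 fold 0.11), beside shares of 12.2% and 11.1% and a median of 0.01 over all genes. Glul, glutamine synthetase, went from 106 ± 3.26 to 133 ± 7.55 CPM (log2 fold 0.33 ± 0.06, edgeR adjusted p = 0.0014), and Odc1, which makes putrescine from ornithine, rose by 0.27 ± 0.06 (adjusted p = 0.0064). Asns and Got1 belong to this list as well. Among 11 regulators and partners of the carriers 2 rose and 1 fell, against 12.2% and 11.1% of all genes tested, and the median log2 fold was 0.01 in both. Nedd4, a ubiquitin ligase, read 55.8 to 67.3 CPM in E1KO and 29.6 to 39.2 CPM in E1WT (log2 fold 0.81 ± 0.09, adjusted p = 0.00011). Mycn rose by 1.14 ± 0.32 from a mean of 1.21 CPM (adjusted p = 0.023), and Hif1a fell by 0.24 ± 0.07 (adjusted p = 0.028).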

How the data were processed

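RNA-seq of 8 libraries was deposited by the authors as unscaled counts of reads for each gene symbol. Per the submitters' processing notes, TopHat2 2.1.0, HTSeq 0.9.1 and mm10 were used. The annotation and strand setting were not given in the sources used here. Another 5 rows per file hold reads given to no gene (28.2% to 37.0% of counts) and were left out. Among counts of 1 to 20, 65.5% to 70.0% were even, so a count need not be an independent fragment.

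Libraries were grouped by title. The main test was edgeR 4.0.16 under R 4.3.3 (TMM scaling, default filter with a count minimum of 10, quasi-likelihood test, Benjamini-Hochberg adjustment over 13333 genes, threshold 0.05). CPM are TMM-scaled, except in the rule of 1 CPM for naming members, and SEs derive from the edgeR F statistic. Members with a mean of at least 1 CPM, or called, were named, and those called or at 20 CPM or more are given by library. From each pathway list the called genes with the 4 smallest p are named. One gene that this rule selects is not reported here. Replicates differed by more than sampling noise (chi-square per degree of freedom 4.20 to 64.4). Positions and exon lengths come from GENCODE M21 on GRCm38, the assembly of mm10. Members and lists were chosen with earlier results of these data known. The gene test was tested on simulated data. Alternatives used DESeq2 1.42.0, limma 3.58.1 (voom), other scalings and filters, the replicate number as a block, libraries left out, an exon-length correction and autosomal genes.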

Additional observations from a re-analysis of the deposited data

Results flagged for a closer look

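In 4 of 58 sets of 4 libraries (29 genes in each title), 1 library lay apart from the other 3 of its title, by Dixon's criterion for the gap to the nearest, and chance gives about 5% of sets. Slc43a3 was at 16.1 CPM in E1KO library 2 and at 13.6 to 14.0 CPM in the others. Slc6a8 was at 1.94 CPM in E1KO library 2 and at 0.848 to 1.02 CPM in the others. Slc3a1 was at 0.816 CPM in E1KO library 3 and at 1.26 to 1.32 CPM in the others. Slc38a10 was at 151 CPM in E1WT library 2 and at 167 to 170 CPM in the others.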

How the results depend on the processing

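Of 12 called members, 5 kept the call under every alternative that tested them, and none changed sign. Members called higher numbered 7, and 4 with the replicate block or as the lowest count with 1 library left out (4 to 6). Members called lower numbered 5, and 2 with total count scaling, 3 without a filter, 2 with the replicate block and 2 to 4 with 1 library left out. Under the block 6 of the 12 kept the call, but the numbers share only a number: deviations of same-numbered libraries correlated at -0.10 to 0.01, and 0 of 8 libraries correlated best with their own number. With 1 library left out, 1194 to 1659 genes were called higher and 1010 to 1566 lower overall. Uncalled members changed sign as follows, with log2 folds near 0 for most. With total count scaling Slc38a1 was at 0.0054, Slc38a10 at 0.042, Slc6a6 at 0.034, Slc7a1 at 0.0094 and Slc7a6os at 0.020. Slc38a1 was at 0.041 with the exon-length trend removed. Slc1a2 was at -0.0093 with DESeq2 and -0.73 with E1KO 1 and E1WT 4 left out. With 1 library left out, values ran from -0.38 to 0.81 for Slc1a2, -0.23 to 0.086 for Slc3a1, -0.13 to 0.011 for Slc38a1, -0.063 to 0.0070 for Slc38a10, -0.073 to 0.011 for Slc6a6 and -0.17 to 0.11 for Slc7a6os. The cause was not tested. Members under 1 CPM rest on few counts.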
